A study of Mus musculus with 4 samples.

Results

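Oligodendrocyte precursor cells (OPCs) were taken from single-nucleus RNA sequencing of the mouse basolateral amygdala (BLA), and 1781 of 26850 kept nuclei were OPCs. A nucleus was a member when it held at least 3 UMIs (unique molecular identifiers, each counting 1 captured RNA molecule) of Pdgfra, Vcan, Cspg4, Neu4 and C1ql1 together, and at least 10 of them per 10000 UMIs. It could hold at most 2 UMIs of the differentiation genes Enpp6, Gpr17 and 9630013A20Rik, and at most 1 UMI of each pair that marks neurons (Slc17a7 and Gad2), mature oligodendrocytes (Mobp and Mog) and astrocytes or microglia (Gja1 and Csf1r). These values chose the cells, so their levels in OPCs are given as a description.

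The study set DISC1-N mice (DISC-N or DISC1 in some labels) against wild-type (WT) mice, both on the C57BL/6J background, to ask whether BLA cells differ in their transcripts. Both genotypes received tamoxifen by intraperitoneal injection and were sampled 6 h later, so no group without tamoxifen was analysed here. Each group pooled the BLA of both sides from 5 mice, and each genotype has 2 libraries. The labels do not say whether the 2 libraries of a genotype came from different mice, so p-values may measure technical spread only, and neither the DISC1-N allele nor what drives it is given in the sources used here.

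OPCs are the glial progenitors of the adult brain. PDGF receptor alpha, encoded by Pdgfra, receives the PDGF signal that keeps them dividing and undifferentiated, and the proteoglycan NG2, encoded by Cspg4, covers their surface. They contact neurons through synapses and carry glutamate and GABA receptors. On leaving this state they pass through a short committed stage marked by Gpr17, Bcas1 and Enpp6, and then make myelin. Notch signalling acts through repressors such as Hes1 and holds them as progenitors.

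The members numbered 258 and 560 nuclei in the DISC1-N libraries of replicates 1 and 2, against 365 and 598 in the WT libraries. Their summed counts were 630227 and 1289144 UMIs in DISC1-N, against 904871 and 1303101 UMIs in WT. The median member held 2203.5 and 2153.5 UMIs in the DISC1-N libraries and 2301 and 2034 UMIs in the WT libraries. Libraries stood apart by replicate number and not by genotype: a chi-square of the counts of 2 OPC sums, per degree of freedom, came to 1.24 within replicate 1 and 1.48 within replicate 2, and 4.36 to 6.14 for the other pairs. Replicates 1 and 2 also carried different Cell Ranger versions in their file headers. No cell barcode was shared between members of different libraries, although 79 barcodes were shared over all library pairs among all deposited barcodes. The replicate term passed for 1961 of 10835 genes in OPCs (18.1%, edgeR).

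The label held against markers outside the rule. Sox10, the transcription factor of the oligodendrocyte lineage, had 455 and 251 counts per 1000000 UMIs (CPM) in DISC1-N OPCs and 406 and 287 CPM in WT OPCs, against 10.2 to 21.1 CPM in the rest of the nuclei. Of 26 OPC genes not in the rule, 25 were higher in OPCs than in mature oligodendrocytes in all 4 libraries, 23 were higher than in astrocytes and 18 were higher than in differentiating oligodendrocytes. Lhfpl3, a tetraspan-like membrane protein, averaged 4330 CPM in OPCs, 989 CPM in differentiating cells, 84.4 CPM in mature oligodendrocytes and 33.8 CPM in astrocytes. Ptprz1, a receptor phosphatase of the cell surface, was shared with astrocytes, at 3469 CPM in OPCs and 1827 CPM in astrocytes.

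Genes with at least 50 CPM in every OPC sum were ranked by their smallest ratio, over the 4 libraries, to all other nuclei pooled. The rule markers were left out, as were gene models and mitochondrial, ribosomal protein and sex-linked genes. First among the remaining genes was Gucy2f, a guanylate cyclase best known from photoreceptors. It had 111 to 127 CPM in OPCs and 0.941 to 1.495 CPM in the rest, a ratio of at least 76.1 in each library. Next came Afap1l2, an adaptor that binds actin filaments, with 121 to 180 CPM in OPCs and 2.16 to 3.75 CPM elsewhere. Susd5, Stk32a, Shc4 (an adaptor of receptor tyrosine kinases), Gpr17, Mmp15 (a membrane metalloproteinase), Sema3d (a secreted semaphorin), Olig2, Car8, Rnf43 (a ubiquitin ligase that removes Wnt receptors), Abtb2, Fam114a1, Ntn1 (the guidance cue netrin-1) and Sox10 completed the first 15. Not all of these are highest in OPCs: Sox10 averaged 350 CPM in OPCs and 515 CPM in differentiating cells, and Gpr17 113 CPM in OPCs and 371 CPM in differentiating cells. Gpr17 is also limited by the rule, and since the cells were chosen on their own transcripts, these ratios carry no test.

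**Figure D1:**
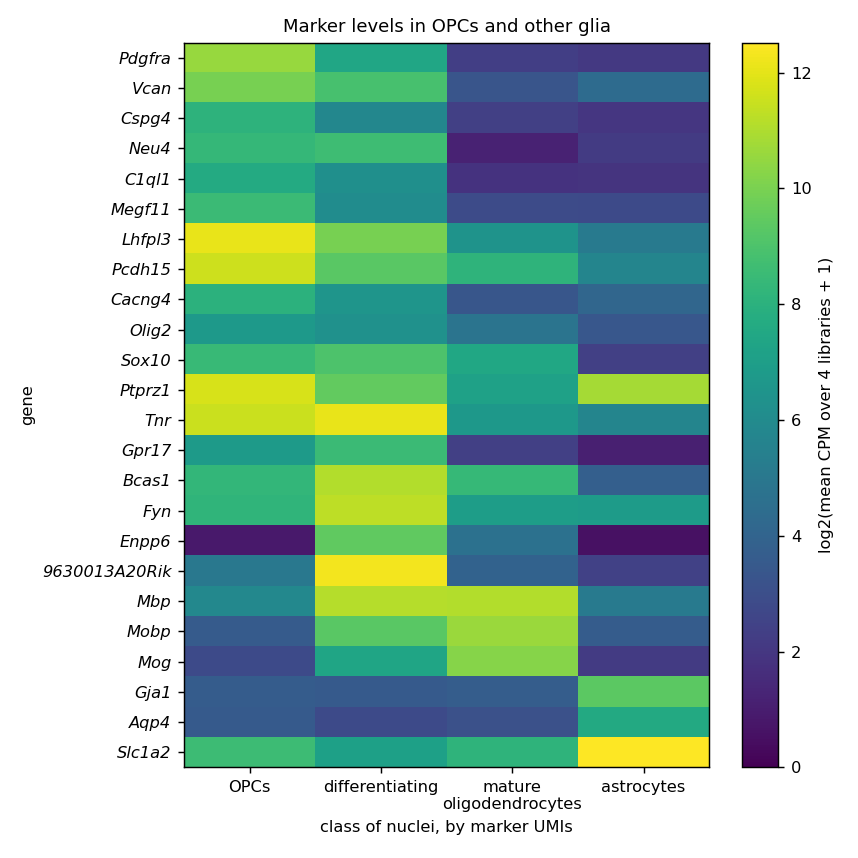
Mean level of lineage and astrocyte markers, as log2(mean CPM over 4 libraries + 1), in OPCs, differentiating oligodendrocytes, mature oligodendrocytes and astrocytes. Pdgfra stands at 1549 CPM in OPCs and 4.04 CPM in mature oligodendrocytes, while Mog, a myelin glycoprotein, stands at 6.06 CPM in OPCs and 1224 CPM in mature oligodendrocytes.

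The rule markers were spread among members as follows, as a description. At least 3 of the 5 markers were detected in 77.9% and 71.8% of DISC1-N OPCs and in 72.9% and 66.6% of WT OPCs, and the median sum was 8 and 7 marker UMIs in the DISC1-N libraries and 7 in both WT libraries. Just inside the limit, 9 and 56 DISC1-N nuclei and 25 and 65 WT nuclei had a sum of exactly 3. Just outside it, 9 and 33 DISC1-N nuclei and 18 and 30 WT nuclei had a sum of 2 and met every other condition. The 26 OPC genes outside the rule summed to 30611 and 31756 CPM in DISC1-N nuclei with a sum of 3 and 27306 and 36482 CPM in WT ones, and to 18612 and 25743 CPM in DISC1-N nuclei with a sum of 2 and 22374 and 25892 CPM in WT ones.

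The share of OPCs was compared over the 4 libraries. OPCs made up 5.72% (95% Wilson interval 5.08 to 6.44) and 6.83% (6.30 to 7.40) of kept nuclei in the DISC1-N libraries, against 6.04% (5.46 to 6.66) and 7.39% (6.84 to 7.98) in the WT libraries; these intervals cover counting error only. The mean was 6.28% ± 0.781 in DISC1-N and 6.71% ± 0.955 in WT (SD, n = 2 each), a difference of -0.434 percentage points. A two-sided exact permutation test gave p = 0.667, but with 4 libraries it cannot go below 0.333 and so could not have passed. Within replicate numbers 1 and 2 the difference was -0.312 and -0.557 percentage points. With a minimum of 5 marker UMIs the difference was -0.0112 percentage points. Among all nuclei of the oligodendrocyte lineage, OPCs were 44.9% ± 2.35 in DISC1-N and 44.5% ± 2.69 in WT (SD, n = 2 each).

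**Figure D2:**
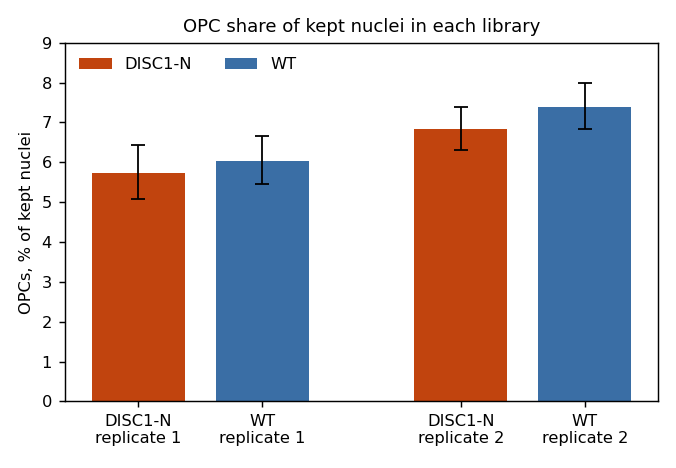
OPCs as a percentage of kept nuclei in each library, with 95% Wilson intervals as error bars. The DISC1-N bars stand at 5.72% and 6.83% and the WT bars at 6.04% and 7.39%, with intervals that overlap within each replicate number.

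The markers that define OPCs were close between genotypes. Pdgfra had 1734 and 1392 CPM in DISC1-N OPCs, against 1633 and 1437 CPM in WT OPCs. Vcan, a large chondroitin sulfate proteoglycan, had 916 and 1114 CPM in DISC1-N and 791 and 1068 CPM in WT. Cspg4 had 294 and 248 CPM in DISC1-N and 272 and 258 CPM in WT. Among the 5 rule markers, Vcan alone exceeded the same-numbered WT library in replicate 1 and in replicate 2. Neu4, a sialidase, had 344 and 320 CPM in DISC1-N against 293 and 342 CPM in WT, and C1ql1, a secreted C1q-like protein, had 225 and 195 CPM in DISC1-N against 165 and 226 CPM in WT. For the 5 markers the log2 fold change lay between 0.04 and 0.15 and is a description, since they chose the cells.

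Disc1 itself, which encodes a scaffold protein of the centrosome and cytoskeleton, was detected in OPCs of both genotypes. It had 53.9 and 70.6 CPM in DISC1-N and 50.8 and 59.9 CPM in WT, so the DISC1-N range held both a value between the WT values and one above them. The log2 fold change was 0.20 ± 0.20 (SE), with an adjusted p of 0.977 in edgeR's quasi-likelihood test. Whether a transcript of the DISC1-N allele is counted under Disc1 is not given in the sources used here, so this gene does not check the genotype labels.

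Few genes differed between the genotypes. With OPC counts summed per library and replicate number as a blocking term, edgeR's quasi-likelihood test called 9 of 10835 genes at an adjusted p under 0.05, which is 0.0831% of those tested, and 594 (5.48%) had an unadjusted p under 0.05. Of these, 6 were higher in DISC1-N (0.0554%) and 3 were lower (0.0277%). The higher genes were Tshz3, Sapcd2, Hes1, Vtn and the gene models Gm47283 and Gm21860, and the lower ones were Sirt2, Galntl6 and the gene model AC149090.1. Without the block no gene passed, with 94 at an unadjusted p under 0.05, and DESeq2 with the block called none either, with 10 at an unadjusted p under 0.05. Limma-voom with the block called 4 (0.0369%): Tshz3, Sapcd2, Gm47283 and AC149090.1. The block leaves 1 residual degree of freedom and gives a biological coefficient of variation of 0.0587, against 0.202 without the block.

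**Figure D3:**
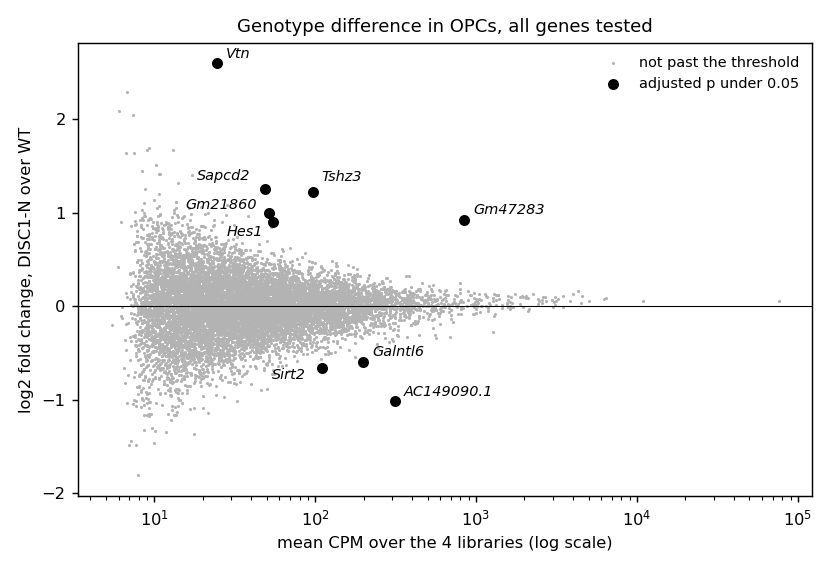
Log2 fold change in OPCs, DISC1-N over WT, against mean CPM over the 4 libraries on a log axis, for all 10835 genes tested in the blocked fit. Black points are the 9 genes past an adjusted p of 0.05, with Tshz3 at 1.22 and Sirt2 at -0.66.

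Tshz3, a teashirt zinc finger transcription factor, showed the clearest rise of a named gene. It is on chromosome 7 (mm10, 36698118 to 36773553, plus strand), where 4 gene models overlap it on the same strand. Summed OPCs held 85 and 171 UMIs in the DISC1-N libraries and 58 and 70 UMIs in the WT libraries, which is 135 and 133 CPM in DISC1-N and 64.1 and 53.7 CPM in WT. Both DISC1-N libraries lay above both WT libraries, as they did for 10.5% of all genes tested. The log2 fold change was 1.22 ± 0.17 (SE), a 2.33-fold higher level with an adjusted p of 5.89e-09 in edgeR. It passed in 14 of the 16 alternatives that kept all 4 libraries, all but DESeq2 and the fit without the block. It passed in none of the 4 fits that left out 1 library, which had no block, and the intact replicate number then gave a log2 fold change of 1.08 or 1.30.

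The rise of Tshz3 was spread over nuclei. A Tshz3 UMI was found in 24.0% and 23.9% of DISC1-N OPCs, against 14.2% and 10.2% of WT OPCs, and no nucleus held more than 5. Thinned to 1000 UMIs per nucleus, the shares were 13.7% and 11.2% in DISC1-N and 4.95% and 4.75% in WT. In mature oligodendrocytes, which have fewer UMIs per nucleus (medians of 1459 to 1469), 2.55% and 3.55% of DISC1-N and 2.87% and 3.21% of WT nuclei had a UMI. Tshz3 had 19.8 and 22.3 CPM in DISC1-N mature oligodendrocytes against 17.8 and 18.1 CPM in WT ones. The genotype difference was not shown to differ between OPCs and mature oligodendrocytes (interaction 0.97 ± 0.39 on the log2 scale, adjusted p = 0.778 in edgeR), nor between OPCs and astrocytes (0.66 ± 0.48, adjusted p = 1).

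Sapcd2 encodes a protein that orients the mitotic spindle in mouse retinal progenitors. It is on chromosome 2 (25372321 to 25378213, plus strand) and was far higher in OPCs than in all other nuclei pooled. The levels were 73.0 and 62.8 CPM in DISC1-N OPCs and 37.6 and 22.3 CPM in WT OPCs. The rest of the nuclei of the 4 libraries had 0.521 to 1.07 CPM, a pool in which the 155 differentiating oligodendrocytes weigh little. The OPC sums held 46 and 81 UMIs in DISC1-N and 34 and 29 UMIs in WT. In CPM the groups did not overlap, with DISC1-N above WT as for 10.5% of all genes tested. The log2 fold change was 1.26 ± 0.23 (SE), or 2.39-fold, with an adjusted p of 0.000183 in edgeR. A UMI was found in 15.9% and 12.1% of DISC1-N OPCs against 8.22% and 4.85% of WT OPCs, and in 0% and 0.443% of DISC1-N and 0% and 0.153% of WT mature oligodendrocytes. The call was lost in 5 of 16 alternatives: without the block, with DESeq2, with at least 5 marker UMIs (adjusted p = 0.301 in edgeR), with no UMI of any excluded marker (0.607) and without the 5% of members highest in neuronal markers (0.0753). Like Tshz3, it passed in no fit that left out 1 library.

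Sapcd2 was found at about the same rate in OPCs with and without Tshz3. In the DISC1-N libraries 16.1% and 11.2% of nuclei with a Tshz3 UMI also had a Sapcd2 UMI, against 15.8% and 12.4% of those without one. In the WT libraries the shares were 7.69% and 6.56% with a Tshz3 UMI and 8.31% and 4.66% without one.

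The 250 bases before the RefSeq start of both genes are shown because these were the 2 named genes whose rise was called by limma-voom as well as edgeR. Starts and sequences are those of RefSeq on GRCm38.p6, 5′ to 3′ on the gene's strand, and RefSeq starts Sapcd2 upstream of the GENCODE start given above. Capitals mark TGGGAA, the core bound by the Notch partner RBPJ, or the E-box CAGNTG, each on either strand.
Tshz3, chr7:36697868-36698117, plus strand: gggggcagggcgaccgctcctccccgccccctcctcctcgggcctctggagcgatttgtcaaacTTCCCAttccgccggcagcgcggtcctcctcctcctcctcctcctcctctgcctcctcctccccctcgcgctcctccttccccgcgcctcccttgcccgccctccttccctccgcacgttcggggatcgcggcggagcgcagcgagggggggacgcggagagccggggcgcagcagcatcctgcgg
Sapcd2, chr2:25371785-25372034, plus strand: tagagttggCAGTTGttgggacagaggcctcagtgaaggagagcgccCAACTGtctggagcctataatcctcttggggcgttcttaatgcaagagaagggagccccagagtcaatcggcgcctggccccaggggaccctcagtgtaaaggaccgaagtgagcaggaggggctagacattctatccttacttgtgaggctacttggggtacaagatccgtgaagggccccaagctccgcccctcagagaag
The Tshz3 stretch held 1 TGGGAA match, on the minus strand and starting 186 bases before the RefSeq start, and the Sapcd2 stretch held 2 E-box matches, at 241 and 203 bases before its RefSeq start. No motif overlapped another, and neither stretch held ACAAAG, a SOX core. Among 27025 promoters of this length, 21.5% held TGGGAA, 44.5% the E-box and 16.5% ACAAAG, so the matches are common letters and a description only.

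Hes1, the Notch effector repressor, was higher in DISC1-N OPCs. It had 76.2 and 65.9 CPM in DISC1-N, against 43.1 and 34.5 CPM in WT, from 48 and 85 UMIs in DISC1-N and 39 and 45 UMIs in WT. The groups did not overlap, with DISC1-N above WT as for 10.5% of all genes tested. The log2 fold change was 0.90 ± 0.22 (SE), with an adjusted p of 0.0450 in edgeR. This call stands at the edge of the threshold: it was kept in 2 of 16 alternatives, with an adjusted p of 0.217 under DESeq2 size factors. In astrocytes, where Hes1 is also expressed, it had 81.1 and 54.9 CPM in DISC1-N and 59.9 and 62.4 CPM in WT, and the difference between OPCs and astrocytes was not called (interaction 0.83 ± 0.30, adjusted p = 1 in edgeR).

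Sirt2, an NAD-dependent deacetylase that oligodendrocytes make as they mature, was lower in DISC1-N OPCs. It had 77.7 and 93.1 CPM in DISC1-N against 115 and 156 CPM in WT. The groups did not overlap, with DISC1-N below WT as for 11.6% of all genes tested, and there was a log2 fold change of -0.66 ± 0.16 (SE) with an adjusted p of 0.0496 in edgeR. A UMI was seen in 16.7% and 18.9% of DISC1-N OPCs and in 23.0% and 28.9% of WT OPCs. In mature oligodendrocytes the level was 207 and 200 CPM in DISC1-N and 196 and 223 CPM in WT. The call was kept in 1 of 16 alternatives, the filter at a mean CPM of 20, and the difference from mature oligodendrocytes was not called (interaction -0.60 ± 0.20, adjusted p = 0.629).

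**Figure D4:**
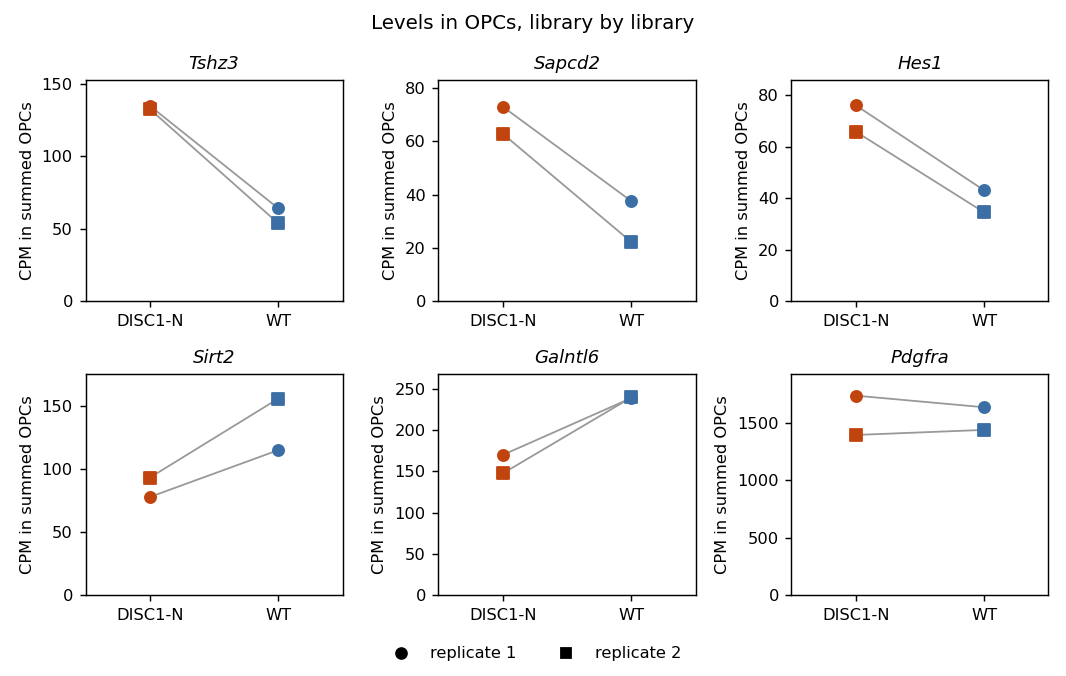
CPM in summed OPCs of each library for Tshz3, Sapcd2, Hes1, Sirt2, Galntl6 and the rule marker Pdgfra, with lines joining DISC1-N and WT libraries of the same replicate number. Tshz3 stands at 135 and 133 CPM in DISC1-N and 64.1 and 53.7 CPM in WT, while Pdgfra crosses over between replicates.

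The other 2 named calls changed with single nuclei of many UMIs. Vtn, the matrix protein vitronectin that brain pericytes make, had 22.2 and 59.0 CPM in DISC1-N and 15.5 and 1.53 CPM in WT, with an edgeR log2 fold change of 2.599 ± 0.36 (SE) and an adjusted p of 1.96e-09. One DISC1-N nucleus of replicate 2 held 49 of its library's 76 Vtn UMIs. That nucleus held 56 UMIs of the mural cell list, a sum that includes these 49, since Vtn is in the list. With each gene limited to 3 UMIs per nucleus the adjusted p was 0.869 in edgeR. The whole mural list of 8 genes, with Vtn's own levels included, summed to 47.6 and 82.2 CPM in DISC1-N OPCs. In WT OPCs it summed to 42.0 and 3.07 CPM, again with Vtn included. From 1 to 5 of its genes were at 0 per library, and its part in the result was not tested. Galntl6, a member of the polypeptide GalNAc-transferase family, had 170 and 147 CPM in DISC1-N and 239 CPM in both WT libraries, with an edgeR log2 fold change of -0.59 ± 0.13 (SE) and an adjusted p of 0.00883. It had 1012 to 1422 CPM in the rest of the nuclei, and 1 WT nucleus of replicate 2 held 70 of 312 UMIs. With at most 3 UMIs per nucleus its log2 fold change was -0.19 and its adjusted p 0.954 in edgeR. Without members above 3 times the median UMIs they were -0.81 and 7.01e-06. That median limit removed the DISC1-N nuclei richest in Galntl6, with 28 of 107 and 15 of 190 UMIs in replicates 1 and 2. It kept the richest WT nuclei, with 26 of 216 and 70 of 312 UMIs, so the removal was one-sided. Galntl6 passed in 6 of 16 alternatives. A UMI was found in 17.4% and 19.5% of DISC1-N OPCs and 29.6% and 17.2% of WT OPCs, so the shares differed in opposite directions in replicates 1 and 2.

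Of the 3 gene models, Gm47283 and AC149090.1 also passed in astrocytes alone (adjusted p = 2.03e-07 and 0.0246 in edgeR with the block), and Gm21860 did not (adjusted p = 0.310). Gm47283, on chromosome Y (90784738 to 90816464), had 779 and 1430 CPM in DISC1-N OPCs and 504 and 660 CPM in WT OPCs, with a log2 fold change of 0.93 ± 0.09 (SE) and an adjusted p of 6.76e-23 in edgeR. In the rest of the nuclei it had 764 and 1501 CPM in DISC1-N and 540 and 679 CPM in WT. AC149090.1, on an unplaced scaffold, had 278 and 155 CPM in DISC1-N OPCs against 333 and 487 CPM in WT OPCs, a log2 fold change of -1.01 ± 0.11, and 558 and 309 CPM against 604 and 754 CPM in the rest. Gm21860, on chromosome Y, had 65.1 and 69.0 CPM in DISC1-N and 45.3 and 26.9 CPM in WT, a log2 fold change of 1.00 ± 0.22. How reads of such models are split among similar copies is not given in the sources used here, so their levels are uncertain. Bex2, a small brain-expressed X-linked protein, was the next gene by p, with 167 and 118 CPM in DISC1-N and 244 and 174 CPM in WT and an adjusted p of 0.0804.

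Groups of genes that define OPC function were compared by counting, beside 49.4% of all genes tested with a log2 fold change below 0 and a median of 0.00. These counts do not ask for the same direction in both replicate numbers. Of all 10835 genes, 2881 were lower and 2624 higher in both. For GABA receptors these counts were 8 and 0 of 13, and for other transmitter receptors 8 and 0 of 19. Cholesterol synthesis had 13 and 3 of 26, and heat shock 8 and 1 of 11. The unfolded protein response had 8 and 3 of 24, immediate early genes 4 and 1 of 8, and mitochondrially encoded genes 4 and 0 of 12. The lists held 1 called gene among lineage transcription factors and Notch, Wnt and BMP genes (Hes1, in both) and 1 among commitment genes (Sirt2), and no called gene in the other lists described here.

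Among 38 tested lineage transcription factors, Hes1 passed and 22 lay above 0, with a median log2 fold change of 0.00. Olig2, which specifies the lineage, had 122 and 119 CPM in DISC1-N OPCs and 101 and 90.6 CPM in WT OPCs, with a log2 fold change of 0.37 and an adjusted p of 0.800 in edgeR. Olig1, its partner, had a log2 fold change of 0.26 and Zeb1, a zinc finger repressor, one of 0.13, and neither passed. The 26 OPC genes outside the rule had a median of 0.06, with 17 above 0 and none called. The lowest p values there were those of Megf11, an adhesion receptor (log2 fold change 0.32, adjusted p = 0.389), Mmp16, a membrane metalloproteinase (0.24, adjusted p = 0.515), and Lhfpl3 (0.16, adjusted p = 0.736).

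Signals that set OPC number and timing were not called beyond Hes1. Of 47 tested genes of growth factor receptors and the RAS, MAPK and AKT pathways, 31 lay above 0 with a median of 0.07. Rictor, a subunit of mTOR complex 2, had a log2 fold change of 0.39, Akt1 0.65, and Dusp6, a phosphatase induced by ERK, 0.88, with adjusted p from 0.718 to 0.888 in edgeR. Of 39 tested Notch, Wnt and BMP genes, 21 lay above 0 and Hes1 passed. Bmp7 and Bmp4, secreted BMP ligands, had log2 fold changes of 0.66 and 0.87, and Tcf7l2, a Wnt effector that rises at commitment, one of -0.22, none of them called. Bmp4 rests on few nuclei, with a UMI in 4 of 258 and 13 of 560 DISC1-N OPCs. In WT OPCs it was seen in 5 of 365 and 7 of 598.

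Transcripts of the committed stage in OPCs are a description, since the rule itself limits 3 of them. No UMI of Enpp6, Gpr17 or 9630013A20Rik was found in 70.2% and 75.4% of DISC1-N OPCs and 66.6% and 72.7% of WT OPCs, and 2 UMIs, the most the rule allows, in 6.59% and 4.29% of DISC1-N and 5.75% and 4.85% of WT OPCs. Bcas1, an early marker of myelin-forming cells, had 481 and 705 CPM in DISC1-N OPCs with 2 such UMIs and 219 and 320 CPM in those with none. In WT OPCs it had 240 and 842 CPM with 2 and 259 and 318 CPM with none, so WT replicate 1 did not follow the other 3 libraries. Of 15 tested commitment genes, Sirt2 passed and 8 lay above 0. Cemip2, a hyaluronidase, had a log2 fold change of 0.98, Lims2 one of 0.66 and Cnksr3 one of -0.62, and none of these passed. All 20 commitment genes of the list were lower in OPCs than in differentiating cells in every library.

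Myelin genes were at low levels in OPCs. Mal, a proteolipid of compact myelin, averaged 21.4 CPM in OPCs and 616 CPM in mature oligodendrocytes, and 24 of 25 myelin genes were lower in OPCs than in mature oligodendrocytes in all 4 libraries. None of 17 tested was called between genotypes. Ptgds, a prostaglandin synthase, had 209 and 76.0 CPM in DISC1-N OPCs and 217 and 149 CPM in WT OPCs, an adjusted p of 0.349, and the log2 fold changes of Mal, Apod and Fa2h were -0.82, 0.94 and -0.38.

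Cell cycle transcripts were detected in OPCs of both genotypes. At least 2 UMIs over 46 cell cycle genes were found in 17.1% and 23.2% of DISC1-N OPCs and in 23.6% and 17.9% of WT OPCs. The difference took opposite signs in replicates 1 and 2, and the means were 20.1% ± 4.36 in DISC1-N and 20.7% ± 4.01 in WT (SD, n = 2 each; two-sided exact permutation test, p = 0.667). The list is not specific to division: in mature oligodendrocytes, which do not divide, the share was 37.2% in DISC1-N and 34.6% in WT. Without Anln, which those cells express, it was 9.18% in DISC1-N and 8.15% in WT. In OPCs the share without Anln was 19.9% in DISC1-N and 20.3% in WT. Depth was not made equal there: OPCs had medians of 2034 to 2301 UMIs and mature oligodendrocytes 1459 to 1469. Over the mitotic genes alone, 0% (0 of 258, with an upper 95% Wilson limit of 1.47%) and 1.61% of DISC1-N OPCs and 1.92% and 1.00% of WT OPCs had at least 2 UMIs. Of 14 tested cell cycle genes none was called; Atad2, a chromatin ATPase of S phase, had 6.35 and 11.6 CPM in DISC1-N and 28.7 and 23.8 CPM in WT, with a log2 fold change of -1.36 and an adjusted p of 0.202. Cenpf, Pola1 and Prim1 had log2 fold changes of 0.88, 0.32 and 0.53.

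Receptors through which OPCs hear neurons were present in both genotypes, and none of 33 glutamate receptor and 13 GABA receptor genes tested was called. Gria2, an AMPA receptor subunit, averaged 1323 CPM in OPCs against 460 CPM in mature oligodendrocytes, and 22 of 36 glutamate receptor genes were higher in OPCs than in mature oligodendrocytes in all 4 libraries. Neto2, an auxiliary subunit of kainate receptors, had a log2 fold change of 0.37, Grm4 0.97, Grik1 0.18 and Grin2b -0.19. Of the GABA receptor genes, 12 of 13 lay below 0 with a median of -0.08, including Gabbr1 (-0.22), Gabrb2 (-0.11) and Gabrb1 (-0.07). The list of other transmitter receptors also holds receptors for lipid mediators and endothelin, and 15 of its 19 tested genes lay below 0 with a median of -0.10. Among them were the lipid mediator receptors S1pr1 and Lpar6, at -1.08 and -0.73. Ednrb, an endothelin receptor, stood at -0.27 and Chrm3, a muscarinic acetylcholine receptor, at -0.36. Markers of neurons in OPCs, 8 genes with none at 0, summed to 3865 and 2169 CPM in DISC1-N and 3643 and 2427 CPM in WT, and their part in these values was not tested.

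No ion channel, matrix or adhesion gene of the lists was called. Of 41 tested genes of voltage-gated and related channels 26 lay above 0, with log2 fold changes of 0.31 for Kcnk10, -0.50 for Kcnj10, 0.21 for Cacnb4 and 0.20 for Kcnd3. Kcnd2, a potassium channel of A-type currents, averaged 3148 CPM in OPCs and 526 CPM in mature oligodendrocytes. Of 34 tested matrix and proteoglycan genes 15 lay above 0. Hapln1, a link protein of the hyaluronan matrix, had a log2 fold change of -1.06 and an adjusted p of 0.718, and Tnc and Xylt1 had 0.67 and 0.13. Of 56 tested adhesion genes 36 lay above 0 with a median of 0.04, led by Cntn5 (0.42), Cntnap5a (0.36), Tenm2 (0.19) and Opcml (0.13).

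No gene of cholesterol synthesis, heat shock or the unfolded protein response was called. The cholesterol synthesis list also holds fatty acid desaturases, and 19 of its 26 tested genes lay below 0 with a median of -0.20. These included Sqle (-0.60) and the desaturases Scd2 (-0.30) and Fads1 (-0.52). Among heat shock genes 9 of 11 lay below 0 with a median of -0.26. Hsp90ab1, a cytosolic chaperone, had 338 and 164 CPM in DISC1-N and 411 and 237 CPM in WT, with a log2 fold change of -0.39 and an adjusted p of 0.321. Hsp90aa1, Hspa8 and Hsph1 had -0.37, -0.34 and -0.30. For the unfolded protein response 17 of 24 tested genes were below 0, with Hspa5 at -0.44, Canx at -0.32, Pdia3 at -0.28 and P4hb at -0.54.

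Median differences also followed gene length. By quartile of gene span, from short to long, the median log2 fold change between genotypes was -0.06, -0.03, 0.02 and 0.03, and the median difference of replicate 2 from replicate 1 was -0.35, -0.13, 0.07 and 0.25. Mitochondrial transcripts, a sign of cytoplasm in a nuclear preparation, were 0.295% and 0.0936% of OPC UMIs in DISC1-N and 0.384% and 0.0834% in WT, and 10 of 12 tested mitochondrially encoded genes lay below 0. The part of gene length and cytoplasmic RNA in these shifts was not tested.

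No immediate early gene or stress hormone gene was called. Of 25 immediate early genes 8 were tested and 7 lay below 0, including Junb (-0.68), Homer1 (-0.32), Nptx2 (-0.76) and Bdnf (-0.47). Of 16 tested stress and glucocorticoid genes 8 lay below 0. Fkbp5, a chaperone induced by glucocorticoids, had 179 and 192 CPM in DISC1-N and 118 and 154 CPM in WT, with a log2 fold change of 0.45 and an adjusted p of 0.363 in edgeR. Tsc22d3, Per2 and Zbtb16 had -0.72, 0.39 and 0.18. Among 33 tested Disc1 partners none was called and 18 lay below 0, with Ppm1k at -0.72, Akt1 at 0.65, Ndel1, which binds the dynein motor, at -0.41, and Pafah1b1, its partner Lis1, at -0.20.

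**Figure D5:**
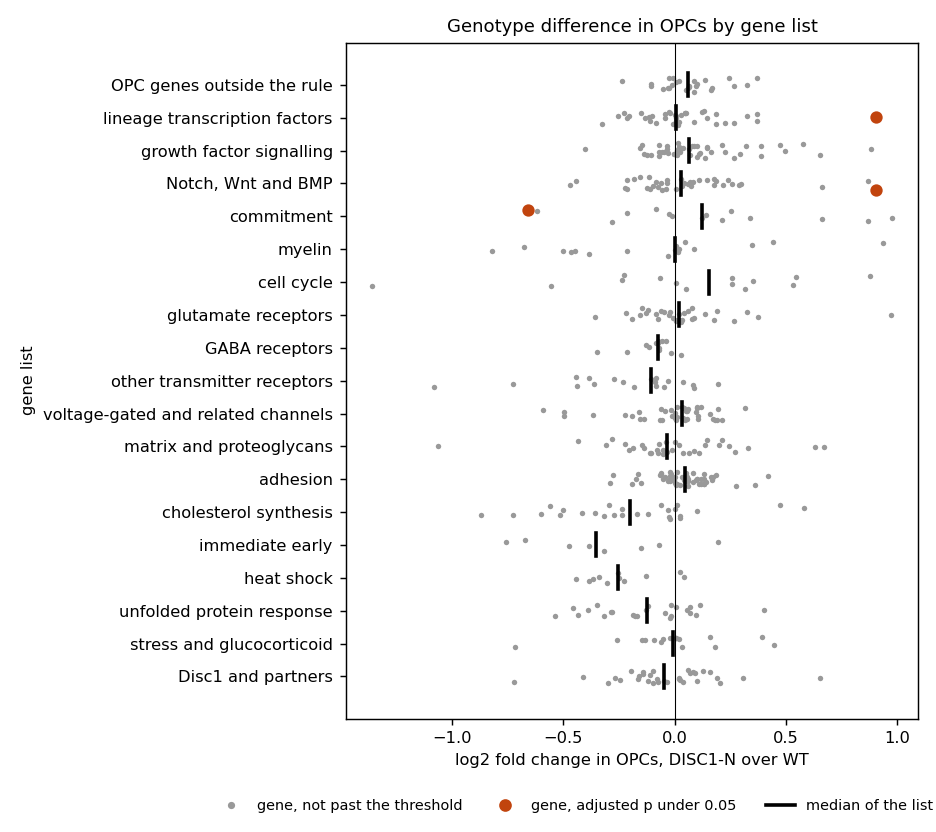
Log2 fold change in OPCs, DISC1-N over WT, of each tested gene of 19 lists, with a black bar at the list's median. Large red points are genes past an adjusted p of 0.05: Hes1 at 0.90, which is in 2 lists, and Sirt2 at -0.66.

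The genotype difference in OPCs was set against that in the next stage of the lineage and in astrocytes. The difference between classes passed for 3 of 11646 genes against mature oligodendrocytes (0.0258%) and for none of 11947 against astrocytes, where 487 had an unadjusted p under 0.05 in edgeR. Without the block none passed in either, with 328 and 365 at an unadjusted p under 0.05. The 3 genes were Gpc5, Slc1a2 and Dpp10, with log2 fold changes of 0.11, -0.04 and 0.13 in OPCs: Gpc5, a glypican, had 2913 and 4235 CPM in DISC1-N OPCs against 2898 and 3785 CPM in WT OPCs.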

How the data were processed

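Single-nucleus libraries (10x 3' v3, per the labels' protocols) were deposited by the authors as UMI counts per gene and barcode, not normalized. The submitters' processing notes name Cell Ranger 7.0.0 and mm10, while in the file headers replicate 1 carries version 7.0.0 and replicate 2 version 6.0.2. Whether introns were counted is not given in the sources used here. Nuclei with at least 500 genes and under 5% mitochondrial UMIs were kept, and members were summed per library. No doublet caller was run, and the rule's limits on other markers stood in for it. Sums were tested with edgeR 4.0.16 in R 4.3.3 (quasi-likelihood, TMM, filterByExpr, Benjamini-Hochberg over all genes, threshold 0.05), with the replicate number as a block because the OPC rule compares genotypes within it. Deviations of same-numbered libraries from their group means correlated at 0.425. DESeq2 1.42.0 and limma 3.58.1 (voom) were alternatives, beside other filters, member rules, thinning and left-out libraries. The tests were tried on simulated data. SE is the log2 fold change over the square root of F. Shares used exact permutation tests of 4 libraries.

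Genes past the threshold with a mean CPM of at least 20 that moved alike in both replicate numbers were named (up to 10 rises and 10 falls, without gene models), with the 10 lowest p, the rule markers, Disc1 and the 4 lowest p of each list described. A few genes that this rule names are not reported here. Members, lists and tests were chosen with earlier results of these data known. Ensembl IDs gave the match to GENCODE vM21 (32235 of 32285), coordinates are 1-based on mm10, and CPM are per 1000000 UMIs of the summed class and are not compared between genes, since they are not scaled by length. A level in summed nuclei cannot tell fewer nuclei with a transcript from less RNA in each.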

Additional observations from a re-analysis of the deposited data

Results flagged for a closer look

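In 3 genes the genotype difference in OPCs differed from that in mature oligodendrocytes in edgeR's class by genotype test. The log2 interaction of Gpc5, a heparan sulfate proteoglycan of the cell surface, was -0.93 ± 0.16 (SE, adjusted p = 3.36e-05), with 448 and 408 CPM in DISC1-N mature oligodendrocytes and 288 and 157 CPM in WT ones. That of Slc1a2, the astrocyte glutamate transporter, was -0.84 ± 0.16 (adjusted p = 0.000771), with 448 and 260 CPM in DISC1-N mature oligodendrocytes and 293 and 138 CPM in WT ones, and 332 and 406 CPM in DISC1-N OPCs and 395 and 384 CPM in WT OPCs. That of Dpp10, which modulates A-type potassium channels, was 0.63 ± 0.14 (adjusted p = 0.0308), with 620 and 366 CPM in DISC1-N mature oligodendrocytes and 803 and 566 CPM in WT ones. In mature oligodendrocytes alone none of the 3 was called between genotypes (adjusted p = 0.438, 0.489 and 0.613). With DESeq2 size factors 2 genes passed the class by genotype test, none of them with a positive interaction, so Dpp10 was not called. The 12 astrocyte markers, of which Slc1a2 is one, summed to 1124 and 733 CPM in DISC1-N mature oligodendrocytes and 691 and 503 CPM in WT ones, and their part in these differences was not tested.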

How the results depend on the processing

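The count of 9 called genes became 0 without the replicate block and 0 with DESeq2. It was 5 with DESeq2 size factors in edgeR, with a marker UMI minimum of 2 and with sums thinned to the smallest, and 4 with limma-voom, with no UMI of any excluded marker and with at most 3 UMIs of a gene per nucleus. It was 2 with a marker UMI minimum of 5 and without the 5% of members highest in neuronal markers. The limit of 3 UMIs per nucleus, the neuronal limit, the list without Anln and the mitotic genes were chosen after seeing the data. Fits that left out 1 library each had no block and 1 library in a genotype, so their calls are not counted here. Calls in them were limited to Vtn and Slco1a4, markers of mural and endothelial cells, and came only when a replicate 1 library was absent. Tshz3 and Gm47283 passed in 14 of the 16 alternatives that kept all 4 libraries and in none that left one out, and no named gene that was called changed sign in the 16. Against mature oligodendrocytes, 0 genes passed without the replicate block. The OPC share difference ranged from -1.11 to 0.241 percentage points when 1 library was left out. It reversed to 0.118 without DISC1-N replicate 1 and 0.241 without WT replicate 2, where the replicate numbers are no longer balanced. Within replicate numbers 1 and 2 it was -0.312 and -0.557. The cell cycle difference of -0.593 reversed to 2.53 with 1 or more UMIs, to 2.49 without DISC1-N replicate 1 and to 2.24 without WT replicate 1, and ranged from -3.67 to 2.49 when 1 library was left out. The cause of these changes was not tested. Depth limits scarce genes: Sapcd2 rested on 29 to 81 UMIs per library.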
